A study of Homo sapiens with 27 samples.

Results

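DIO2, LIMA1, SUSD2 and SULT2B1 are 4 genes whose RNA 3′ ends set A549R, read here as the cisplatin-resistant counterpart of the A549 line, apart from A549. They were picked from these same data because their counts differed between A549R and A549, with DIO2 and LIMA1 higher and SUSD2 and SULT2B1 lower in A549R. Their members are all peaks that overlap, on the gene's strand, the hg19 windows chr14:80663500-80678400 (DIO2, minus strand), chr12:50569300-50677400 (LIMA1, minus strand), chr22:24577200-24585400 (SUSD2, plus strand) and chr19:49055400-49103000 (SULT2B1, plus strand). Merging the peaks of all libraries gave 37 members of 233020 merged peaks: 11 in DIO2, 17 in LIMA1, 3 in SUSD2 and 6 in SULT2B1.

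The study counted 3′ ends of poly(A)+ RNA in 27 libraries of 3 human lines of non-small cell lung cancer, in 9 groups of 3 libraries. It asked how transcript ends change with cisplatin and between resistant and sensitive cells. In H358, whole-cell RNA was taken after vehicle (DMSO), after cisplatin and after oxaliplatin. In A549 and A549R, cytosolic RNA was taken with vehicle or with cisplatin, and in A549 the heavy polysome fraction, that is messenger RNA bound by many ribosomes, was taken under the same pair of treatments. Both platinum compounds were given at 100 µM. All cells grew in the same serum-supplemented RPMI medium. The labels used here give neither an exposure time, nor how A549R was derived or whether it is 1 clone. They do not say that replicates were separate cultures, so p-values measure only the spread between these samples. H358 whole cells and A549 cytosol are different RNA fractions, and in bulk RNA fewer cells with a transcript and less transcript per cell cannot be told apart.

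The 4 genes act in unrelated processes. DIO2 encodes type 2 iodothyronine deiodinase, a selenium-containing enzyme that converts the prohormone thyroxine to the active thyroid hormone inside cells. LIMA1 encodes EPLIN, a LIM-domain protein that bundles actin filaments and links them to the cadherin-catenin complex of cell junctions. SUSD2 encodes a membrane protein with a sushi domain, and SULT2B1 a cytosolic sulfotransferase that adds sulfate to cholesterol and other hydroxysteroids.

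The RefSeq promoter table (GRCh38.p14) held starts for 3 of the 4 genes, all but SUSD2. The 250 bases before 3 starts are shown, 5′ to 3′ on the gene's strand, because they show how the base composition before the starts of the 2 genes higher in A549R and of SULT2B1 differs; capitals mark a cAMP response element (TGACGTCA), a TATA box (TATAAA) or a GC box (GGGCGG, or CCGCCC where it lies on the other strand).
DIO2, chr14:80212179-80212428, minus strand: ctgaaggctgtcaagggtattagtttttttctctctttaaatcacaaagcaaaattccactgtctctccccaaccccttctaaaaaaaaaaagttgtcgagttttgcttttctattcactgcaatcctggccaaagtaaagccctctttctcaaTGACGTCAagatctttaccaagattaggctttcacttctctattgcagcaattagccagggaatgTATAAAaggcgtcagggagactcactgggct
LIMA1, chr12:50283521-50283770, minus strand: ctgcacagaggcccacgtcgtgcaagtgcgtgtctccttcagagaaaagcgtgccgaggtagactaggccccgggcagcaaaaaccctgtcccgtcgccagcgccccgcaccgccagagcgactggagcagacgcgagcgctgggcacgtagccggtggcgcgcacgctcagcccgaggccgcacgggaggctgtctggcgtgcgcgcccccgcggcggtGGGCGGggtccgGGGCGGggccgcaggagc
SULT2B1, chr19:48551922-48552171, plus strand: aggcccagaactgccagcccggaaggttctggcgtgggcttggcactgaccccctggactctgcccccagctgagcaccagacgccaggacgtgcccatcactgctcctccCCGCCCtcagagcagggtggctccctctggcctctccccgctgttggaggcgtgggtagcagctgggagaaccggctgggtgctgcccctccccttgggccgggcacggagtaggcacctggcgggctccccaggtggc
The DIO2 stretch was 40.8% G or C, with a cAMP response element 96 bases and a TATA box 31 bases before the start, whereas the LIMA1 stretch was 73.6% and the SULT2B1 stretch 70.8% G or C and held GC boxes only. Searched on both strands of the 250 bases before 35116 human starts, the cAMP response element was found in 1.65%, the TATA box in 10.7% and the GC box in 42.6%; an AP-1 site (TGANTCA) and a CCAAT box (CCAAT), found in 6.57% and 32.0%, were searched too, and a run may overlap another. A second start of DIO2 (chr14:80211505-80211754) and of LIMA1 (chr12:50202174-50202423) held none of the 5 motifs. There the DIO2 stretch was 46.4% and the LIMA1 stretch 41.6% G or C, so LIMA1's base composition depended on the start shown. These letters are a description of the reference and say nothing of use of the sites in these cells.

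Library totals ran from 3024814 to 11997535 counts. The lists were of 2 kinds: 16 long lists hold 73.1% to 79.4% of their own peak numbers, and 11 short lists (all 6 A549 cytosol, all 3 H358 oxaliplatin and the polysome libraries numbered 3) hold 30.7% to 42.3%. A peak absent from a short list is therefore not a count of 0. All 6 A549R cytosol lists are long, so line and list kind cannot be told apart in any comparison below of A549R with A549 cytosol. Peaks of no short list held 32.4% to 42.1% of the counts in A549R cytosol and 0% in A549 cytosol. Values below are counts scaled to 1000000 per library (CPM) over the 81800 merged peaks found in at least 1 short list, of which 15 lie in the 4 windows (3 in DIO2, 7 in LIMA1, 3 in SUSD2, 2 in SULT2B1), and a library's total over these ran from 1752419 (A549R DMSO replicate 3, the shallowest) to 7659753. The smallest count listed was 5, worth 0.653 to 2.85 CPM. A value of 0 below stands for a peak that was not listed, whose level is not known. The epithelial marker KRT18 and mesenchymal VIM had peaks in all 9 groups, the leukocyte marker PTPRC had no peak of this class, and the alveolar marker NKX2-1 was listed in H358 and in no A549 or A549R cytosol library. SFTPB, another alveolar marker, had no peak of this class. The fibroblast marker COL1A1 had a mean of 2.41 to 8.38 CPM in the 9 groups, and epithelial EPCAM had 20.8 ± 16.6 CPM in A549 and 6.32 ± 2.68 CPM in A549R cytosol in DMSO (SD, n = 3). In the same libraries KRT18 had 4584 ± 1883 CPM in A549 and 1957 ± 471 CPM in A549R, and VIM 1007 ± 189 and 1502 ± 191 CPM, with no overlap between the lines. Of all merged peaks fitted, 11.3% had every A549R library below every A549 library in DMSO, and 10.1% had every A549R library above. The part of these markers in the results was not tested.

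DIO2 was close to the listing limit in A549 and well above it in A549R. Summed over its window, A549 cytosol held 2.89, 1.49 and 21.6 CPM in DMSO (replicates 1 to 3) and 2.72, 2.19 and 1.60 CPM in cisplatin. A549R cytosol held 100.2, 152 and 185 CPM in DMSO and 118, 282 and 167 CPM in cisplatin. All 6 A549R values lay above all 6 A549 values. The group means were 8.68 ± 11.3 against 146 ± 43.0 CPM in DMSO and 2.172 ± 0.559 against 189 ± 84.3 CPM in cisplatin (SD, n = 3), so A549R was 16.8-fold and 87.1-fold higher. This contrast chose the gene, coincides with list kind and has no test here. Among all merged peaks fitted, 10.1% had every A549R library above every A549 library in DMSO and 10.0% in cisplatin.

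The size of the DIO2 ratio turned on 1 library and 1 peak. Without A549 DMSO replicate 3, the DMSO ratio was 66.7. Much of that library's sum came from the peak chr14:80678263-80678525, which reaches past the upstream edge of the window, 14.8 kb from its 3′ edge. That peak held 46 counts in A549 DMSO replicate 3 and was listed in no other A549 cytosol library, and in A549R it held 193 counts in DMSO replicate 3, 660 in cisplatin replicate 2 and 370 in cisplatin replicate 3 and was unlisted in the other 3 libraries. The leading peak, chr14:80667890-80669337, was steadier: 82.5, 131 and 62.8 CPM in A549R DMSO and 99.0, 104 and 62.1 CPM in A549R cisplatin, against 2.89, 1.49, 8.01, 2.72, 2.19 and 1.60 CPM in the 6 A549 cytosol libraries. From this peak alone the cisplatin ratio was 40.7. Scaling by all listed counts, which adds the extra peaks of the long lists to their totals, gave ratios of 10.4 in DMSO and 57.0 in cisplatin.

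In A549R the DIO2 window held a row of ends. A more distal peak, chr14:80663868-80664706, only 0.368 kb from the 3′ edge, held 17.7, 21.1 and 12.6 CPM in A549R DMSO and 19.2, 33.1 and 8.60 CPM in A549R cisplatin and was listed in no A549 cytosol library. With A549 set at the listing limit of 5 counts per library, it would be 15.2-fold higher in A549R in DMSO and 17.5-fold higher in cisplatin. These are not lower bounds, since a peak absent from a short list can hold more than 5 counts. It made up 13.9% to 17.7% of its own and the leading peak's counts in A549R DMSO and 12.2% to 24.1% in cisplatin. Of the 11 DIO2 peaks, 8 appeared in no short list, and of these chr14:80666082-80667501 (14.3 to 33.8 CPM) and chr14:80665231-80665704 (6.52 to 18.02 CPM) were listed in all 6 A549R libraries.

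LIMA1 was higher in A549R than in A549 under both treatments. A549 cytosol held 10.6, 2.79 and 1.48 CPM in DMSO and 9.40, 4.38 and 3.74 CPM in cisplatin. A549R held 69.1, 127 and 43.9 CPM in DMSO and 146, 181 and 72.0 CPM in cisplatin. The groups did not overlap, and replicate 3 was the lowest of each A549R group. Means were 4.96 ± 4.93 against 80.1 ± 42.7 CPM in DMSO and 5.84 ± 3.10 against 133 ± 55.8 CPM in cisplatin (SD, n = 3), ratios of 16.2 and 22.8. Leaving out A549 DMSO replicate 1 raised the DMSO ratio to 37.5, and scaling by all listed counts gave 10.2 and 14.97.

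LIMA1's strongest end is a special case. The peak chr12:50635690-50635775, 86 bases wide and 66.4 kb from the 3′ edge of the window, was in all 16 long lists with 357 to 1487 counts and in no short list, so no A549 cytosol value exists for it. Adding it and the other peaks of that class to the sums would raise the LIMA1 ratios to 68.7 and 61.2, which cannot be told apart from the kind of list. Lists of 1 kind can be set side by side. In the 4 long lists of A549 polysomes this narrow peak held 177 to 338 CPM, and in the 6 A549R cytosol libraries 200 to 308 CPM, overlapping ranges. In the same libraries the last LIMA1 ends stood apart. The leading kept peak near the 3′ edge, chr12:50570647-50571859, held 12.3 to 14.4 CPM in these polysome lists and 21.7 to 96.7 CPM in A549R, a ratio of means of 4.28. The upstream peak chr12:50615837-50616372, 46.5 kb from the 3′ edge, held 6.03 to 8.98 and 17.1 to 55.5 CPM, a ratio of 4.66. These set polysomal against cytosolic RNA as well as A549 against A549R. The A549R values are those that chose the gene, and the share of all peaks that stand apart between these libraries was not computed.

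The same view of DIO2 showed its leading peak at 0 to 1.42 CPM in the 4 long polysome lists and 62.1 to 131 CPM in A549R, whereas the narrow peak chr14:80678032-80678186 held 9.97 to 17.1 and 5.26 to 13.1 CPM. The narrow ends of LIMA1 and DIO2 thus overlapped between these libraries, where the leading DIO2 peak and the leading kept LIMA1 peak did not. The limits given for LIMA1 hold for DIO2 too.

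**Figure D1:**
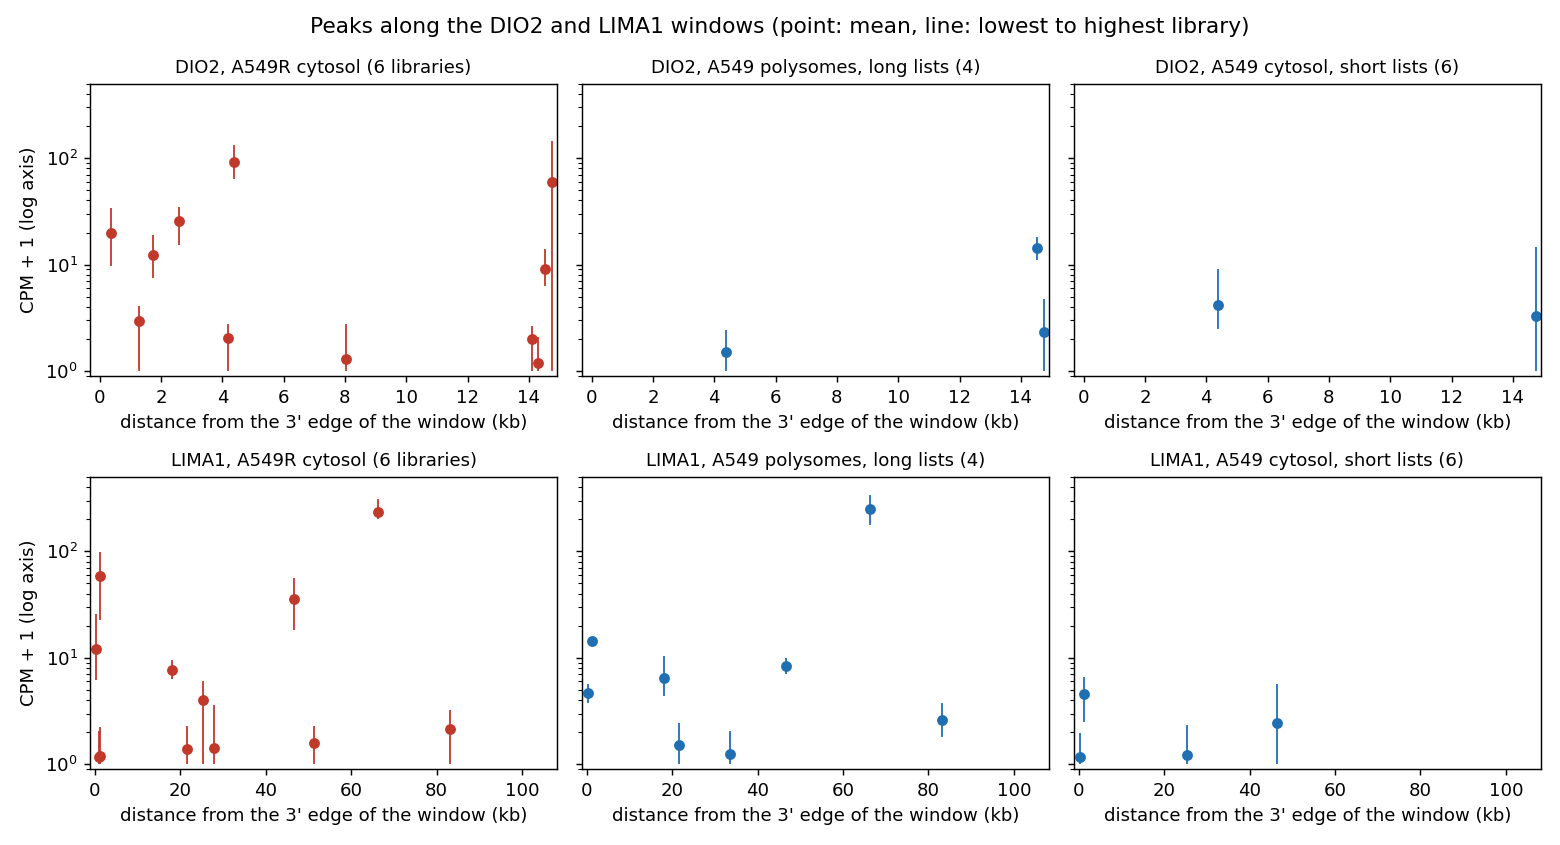
Peaks along the DIO2 and LIMA1 windows, by distance from the 3′ edge (kb) and level (CPM plus 1, log axis), in A549R cytosol, in the long lists of A549 polysomes and in A549 cytosol; points are means and lines run from the lowest to the highest library, and peaks listed in no library of the panel are not drawn. The narrow LIMA1 end at 66.4 kb overlaps between A549R (200 to 308 CPM) and A549 polysomes (177 to 338 CPM) and is missing from the short lists, while the leading DIO2 end at 4.39 kb reaches 131 CPM in A549R and 1.42 CPM in those polysome lists.

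SUSD2 ran the other way. A549 cytosol held 37.8, 23.2 and 62.9 CPM in DMSO and 29.7, 20.4 and 28.6 CPM in cisplatin, and A549R held 1.23, 1.11 and 3.42 CPM in DMSO and 2.13, 1.32 and 4.17 CPM in cisplatin. Every A549 library lay above every A549R library, in which the leading peak chr22:24584844-24585083 had only 5 to 16 counts. Among all merged peaks fitted, every A549R library lay below every A549 library in 11.3% in DMSO and 9.3% in cisplatin. Means were 41.3 ± 20.04 against 1.92 ± 1.30 CPM in DMSO and 26.2 ± 5.07 against 2.54 ± 1.47 CPM in cisplatin (SD, n = 3), so A549 was 21.5-fold and 10.3-fold higher. Without A549R DMSO replicate 3 the DMSO ratio was 35.2, and scaling by all listed counts gave 35.5 and 16.2. The other 2 SUSD2 peaks, chr22:24580750-24580904 and chr22:24584206-24584297, were listed in no A549R library. Among long lists alone, the leading peak held 85.3 to 112 CPM in A549 polysomes and 1.11 to 4.17 CPM in A549R cytosol, a ratio of means of 44.2. This ratio sets polysomal against cytosolic RNA as well as A549 against A549R. Within A549 the peak was itself higher in polysomes than in cytosol, by a log2 of 1.42 in DMSO and 1.68 in cisplatin.

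SULT2B1 was also lower in A549R. A549 cytosol held 85.4, 88.7 and 45.4 CPM in DMSO and 66.1, 31.2 and 13.4 CPM in cisplatin, and A549R held 4.73, 2.22 and 9.70 CPM in DMSO and 4.04, 2.85 and 12.0 CPM in cisplatin. The gap was narrowest in cisplatin, where A549 replicate 3 at 13.4 CPM lay just above A549R replicate 3 at 12.0 CPM. Means were 73.2 ± 24.1 against 5.55 ± 3.81 CPM in DMSO and 36.9 ± 26.8 against 6.30 ± 4.97 CPM in cisplatin (SD, n = 3), so A549 was 13.2-fold and 5.86-fold higher. The DMSO ratio was 21.03 without A549R DMSO replicate 3, and the cisplatin ratio was 3.54 without A549 cisplatin replicate 1 and 10.7 without A549R cisplatin replicate 3. Scaling by all listed counts gave 21.8 and 9.21. All but a few counts came from the single end chr19:49102392-49102691, and the other 5 SULT2B1 peaks held at most 6 counts in any library. Among long lists alone this end held 56.4 to 76.6 CPM in A549 polysomes and 2.22 to 12.0 CPM in A549R cytosol, a ratio of means of 10.6. Here too the RNA fraction differs as well as the line. The short list of A549 polysomes in cisplatin, replicate 3, held 11.9 CPM, just below the highest A549R library.

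**Figure D2:**
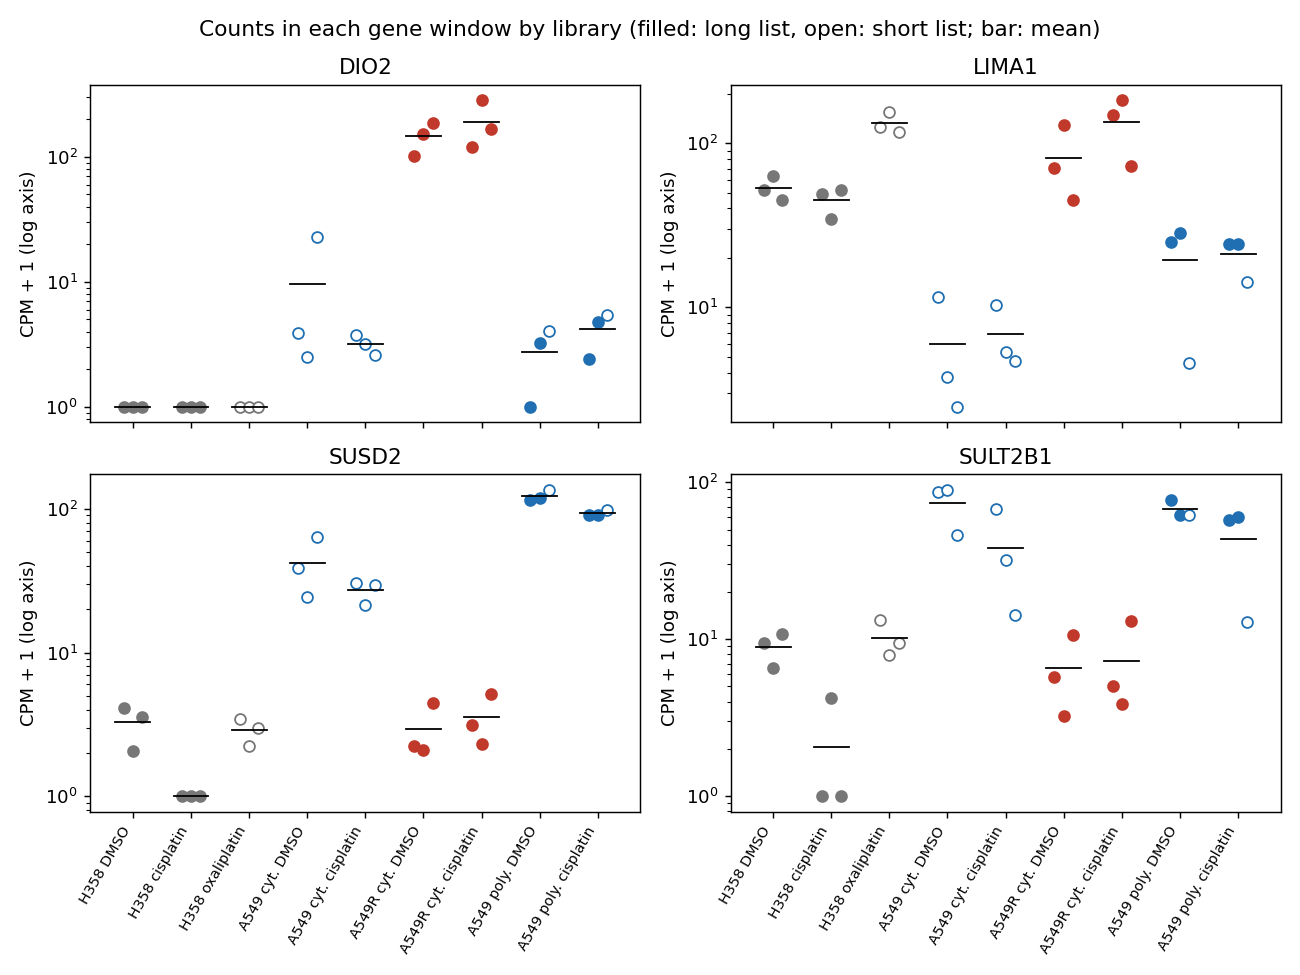
Counts summed over each gene window in every library (CPM plus 1, log axis) for the 9 groups, with filled points for long and open points for short lists and a bar at each group mean. DIO2 is at 100.2 to 282 CPM in A549R cytosol and at most 21.6 CPM elsewhere, LIMA1 is also high in H358, and SUSD2 and SULT2B1 are low in A549R and H358.

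Across the 9 groups the order of levels differed by gene. DIO2 stood in A549R cisplatin and A549R DMSO, which overlapped, then below a gap in the 4 A549 groups, each overlapping its neighbour, and had no peak of this class in the 9 H358 libraries, where the 6 long lists held only the narrow peak at 80678032, with 5 to 32 counts. LIMA1 led in A549R cisplatin (mean 133 CPM), H358 oxaliplatin (132 CPM), A549R DMSO (80.1 CPM), H358 DMSO (52.0 CPM) and H358 cisplatin (43.9 CPM), each overlapping the next; the 4 A549 groups lay lower, at 4.96 to 20.02 CPM, each again overlapping the next. SUSD2 was highest in A549 polysomes in DMSO (122 CPM), then polysomes in cisplatin (92.2 CPM) and A549 cytosol, with no overlap between these 3 levels; the A549R and H358 groups were at 2.54 CPM or less. SULT2B1 was highest in A549 cytosol DMSO (73.2 CPM) and A549 polysomes DMSO (66.1 CPM), which overlapped, and the H358 groups (means 1.06 to 9.22 CPM) and A549R groups (5.55 and 6.30 CPM) lay lowest, each overlapping the next. A549 polysomes in cisplatin (mean 42.3 CPM) reached down to 11.9 CPM and so overlapped H358 oxaliplatin and A549R cisplatin. These orders set whole-cell, cytosolic and polysomal RNA side by side.

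The peaks around each gene were compared with it, first those listed in all 12 cytosol libraries. Within 2.5 Mb of the DIO2 leading kept peak, 14 such peaks had a median log2 difference between A549R and A549 of 0.06 in DMSO, and around LIMA1 81 peaks had a median of -0.04. Around SUSD2, 32 of 35 such peaks were on the other side, higher in A549R in DMSO, with a median of 0.46. Around SULT2B1 109 of 139 were lower in A549R in DMSO with a median of -0.45, the direction of SULT2B1 itself. In cisplatin the medians were 0.12, 0.03, 0.60 and -0.33 for the DIO2, LIMA1, SUSD2 and SULT2B1 surroundings. None of these peaks lay beyond the gene's own difference, but a peak that is unlisted in some libraries cannot be among them. Over all fitted peaks within 2.5 Mb, listed everywhere or not, some differences in DMSO were at least as large as the gene's own and in its direction: 2 of 25 around DIO2, 5 of 156 around LIMA1, 1 of 79 around SUSD2 and 5 of 236 around SULT2B1. In the opposite direction there were 0, 6, 5 and 7. This count over all fitted peaks was added after seeing the data, and a fitted difference against a group with no listed library depends on the prior count. One neighbour of SUSD2, GGT5, a gamma-glutamyltransferase family gene, had 0.692 ± 1.20 CPM in A549 and 17.6 ± 13.2 CPM in A549R in DMSO (SD, n = 3). It was listed in 1 of 3 A549 and 3 of 3 A549R DMSO libraries, on the opposite side to SUSD2.

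**Figure D3:**
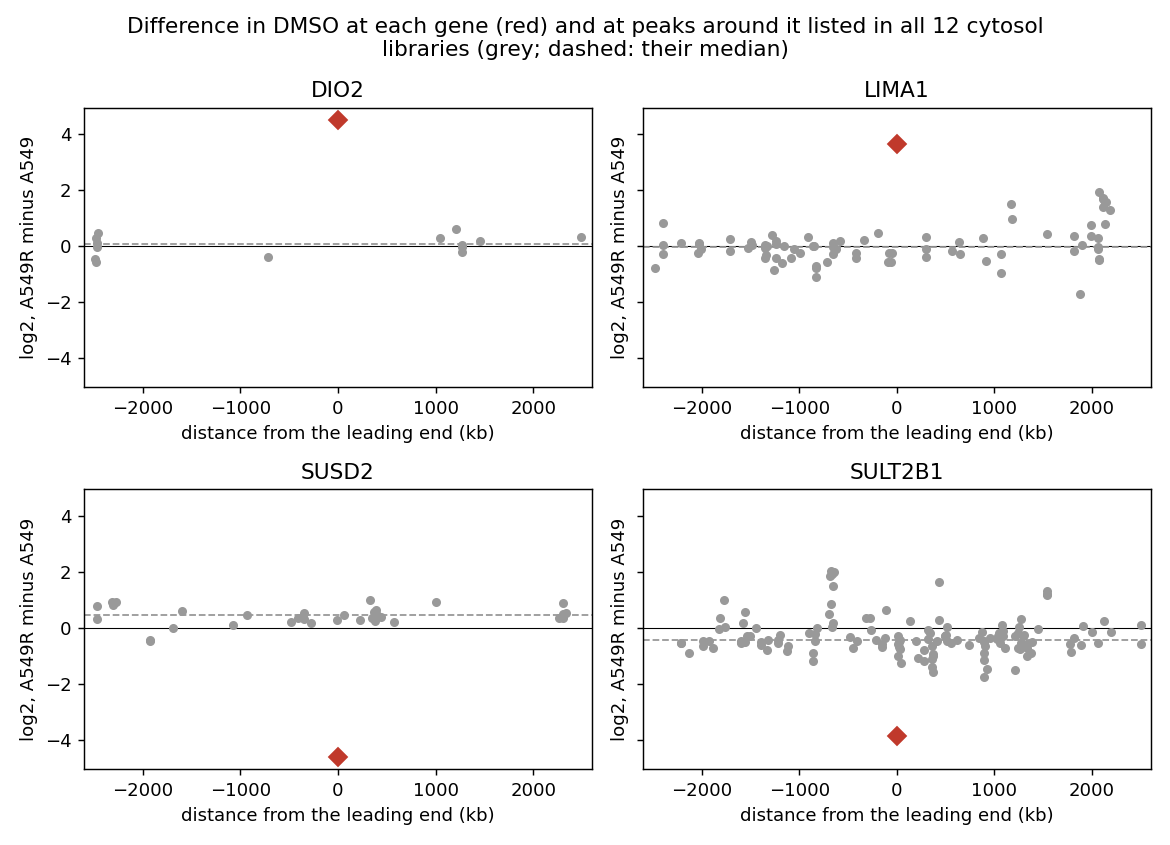
Log2 difference between A549R and A549 in DMSO at each gene's leading kept peak (red) and at other peaks within 2.5 Mb that all 12 cytosol libraries list (grey), by distance (kb), with the dashed line at the median of the others. Each red point lies outside the grey points drawn, which leave out peaks unlisted in any of those libraries, and the grey medians are 0.06 (DIO2), -0.04 (LIMA1), 0.46 (SUSD2) and -0.45 (SULT2B1).

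Whether cisplatin moved the 4 genes within a line was tested, since cisplatin against DMSO did not choose them. The difference of the 2 responses equals the difference of the 2 contrasts that chose them, so it was not free of that choice. In A549 cytosol 0 of 9 member peaks tested passed edgeR's quasi-likelihood test with Benjamini-Hochberg adjustment at 0.05, in A549R cytosol 0 of 9, and in the difference of the 2 responses 0 of 9; 1.45%, 0.827% and 0.0242% of all peaks passed. None of these had an unadjusted p under 0.05. DESeq2 called 1, 0 and 1, each time the DIO2 peak at 80678263. The DIO2 peak at 80663868 was listed in no A549 cytosol library and was fitted through its A549R counts. Its test in A549 could therefore not pass, and its interval for the difference of responses ran from -1902 to 1903. DIO2's peak at 80678263 and LIMA1's at 50569558 and 50594565 were each listed in only 1 A549 cytosol library. In A549, SUSD2's leading peak changed by a log2 of -0.59 ± 0.43 and SULT2B1's by -0.96 ± 0.61 (SE, adjusted p of 0.632 and 0.549); SULT2B1 was lower in 3 of 3 replicate numbers and SUSD2 in 3 of 3. In A549R, SUSD2 was higher with cisplatin in 3 of 3 (log2 0.69 ± 0.58) and DIO2's leading peak changed by 0.05 ± 0.45. For SUSD2 the difference of the 2 responses was 1.28 ± 0.72 with an unadjusted p of 0.104 in edgeR. LIMA1's leading kept peak was 0.82 ± 0.51 in A549R (adjusted p 0.564) and 0.24 ± 0.60 in A549. All 4 LIMA1 peaks tested in A549R were higher with cisplatin in 3 of 3 replicate numbers, and none was called. They are ends of 1 gene in the same libraries, so they do not count as separate members. None of these intervals excludes 0, and none shows that the lines respond alike.

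In H358, whole cells that the choice of genes did not use, LIMA1 and the listing of the low SUSD2 end differed between cisplatin and oxaliplatin. At the leading kept LIMA1 end DMSO held 22.7, 31.3 and 22.7 CPM, cisplatin 23.2, 16.7 and 22.6 CPM and oxaliplatin 62.4, 76.0 and 54.0 CPM. Oxaliplatin lay above DMSO in every library, by a log2 of 1.21 ± 0.22 (SE, edgeR adjusted p 0.0154), and cisplatin did not differ from DMSO beyond its error (-0.03 ± 0.22, adjusted p 0.939, 95% interval -0.53 to 0.46). The 2 compounds at 100 µM differed by -1.24 ± 0.22 for cisplatin relative to oxaliplatin (adjusted p 0.00623, 1 pair of compounds, adjusted over all peaks). The upstream LIMA1 end at 50615837 did the same, with 15.8, 19.5 and 13.8 CPM in DMSO, 14.6, 12.1 and 16.3 CPM in cisplatin and 35.4, 42.9 and 32.3 CPM in oxaliplatin (1.05 ± 0.22, edgeR adjusted p 0.0365, against DMSO, and -0.98 ± 0.23, adjusted p 0.0184, between the compounds). Its share of itself and the 3 ends nearest the 3′ edge was 31.6% to 32.3% in DMSO, 30.7% to 35.8% in cisplatin and 28.5% to 29.9% in oxaliplatin, so every oxaliplatin library lay below every DMSO library. The nearest end, chr12:50569558-50570171, had a log2 of 1.34 ± 0.31 for oxaliplatin against DMSO (adjusted p 0.0569, not past 0.05) and differed between the compounds by -1.24 ± 0.32 (adjusted p 0.0263).

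In all, 2 of 7 member peaks tested were higher with oxaliplatin against DMSO, where 0.224% of all peaks were higher and 2.51% changed in either direction, and 4 of 7 were lower with cisplatin than with oxaliplatin, where 10.6% of all peaks were lower. Both oxaliplatin calls, and all calls between the compounds but SUSD2's, were ends of LIMA1. Ends of 1 gene are not separate members, so these counts against the shares are no result about the 4 genes as a set. The oxaliplatin lists are short and the others long, so list kind and compound cannot be told apart. Leaving out H358 DMSO replicate 1 or replicate 3 left 0 of the 2 oxaliplatin calls, and leaving out any 1 oxaliplatin library left 1; leaving out oxaliplatin replicate 2 or 3 or cisplatin replicate 3 left 2 calls between the compounds. With peaks of no short list in the fit and its scaling, the leading kept LIMA1 end had a log2 of 0.48 for oxaliplatin against DMSO (adjusted p 0.155). LIMA1's narrow end, which the long lists of both groups hold, was at 58.5, 62.7 and 89.2 CPM in H358 DMSO and 137, 191 and 132 CPM in H358 cisplatin, with no overlap. That same all-peak fit gave a log2 of 0.90 ± 0.23 (edgeR adjusted p 0.0375) for cisplatin against DMSO. In the main fit, which is scaled otherwise, the ends near the 3′ edge did not move beyond their error. The share of all peaks called in the all-peak fit is not given here.

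SUSD2 had few counts in H358. Its leading end had 23, 8 and 11 counts in DMSO and 13, 6 and 12 in oxaliplatin and was listed in none of 3 cisplatin libraries. With cisplatin set at the listing limit of 5 counts per library, the DMSO level would be 1.45-fold and the oxaliplatin level 1.21-fold higher. For cisplatin against DMSO and against oxaliplatin, edgeR gave adjusted p of 0.0201 and 0.0269. In this fit, which took unlisted values as 0, 1 of 7 member peaks tested was called lower with cisplatin, SUSD2's. Among all peaks 17.9% changed and 12.8% fell, so 1 of 7 is close to that share. Leaving out H358 DMSO replicate 1 ended the call. The listing limit averaged 1.56 CPM in H358 cisplatin, above SUSD2 in DMSO replicate 2 at 1.08 CPM, so a level like that one could go unlisted there. SULT2B1's end held 8.43, 5.52 and 9.83 CPM in DMSO, 0, 3.19 and 0 CPM in cisplatin and 12.3, 5.69 and 8.45 CPM in oxaliplatin. All cisplatin values lay below all others, but the change of -2.72 ± 0.99 missed the threshold (edgeR adjusted p 0.0860, and 0.0911 against oxaliplatin); leaving out cisplatin replicate 2 brought it past the threshold. The median of all peaks was itself -0.42 in this contrast, and the mitochondrial share of counts was 20.1% to 23.6% in H358 cisplatin against 8.89% to 9.35% in DMSO and 10.1% to 12.8% in oxaliplatin; its part in these results was not tested.

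**Figure D4:**
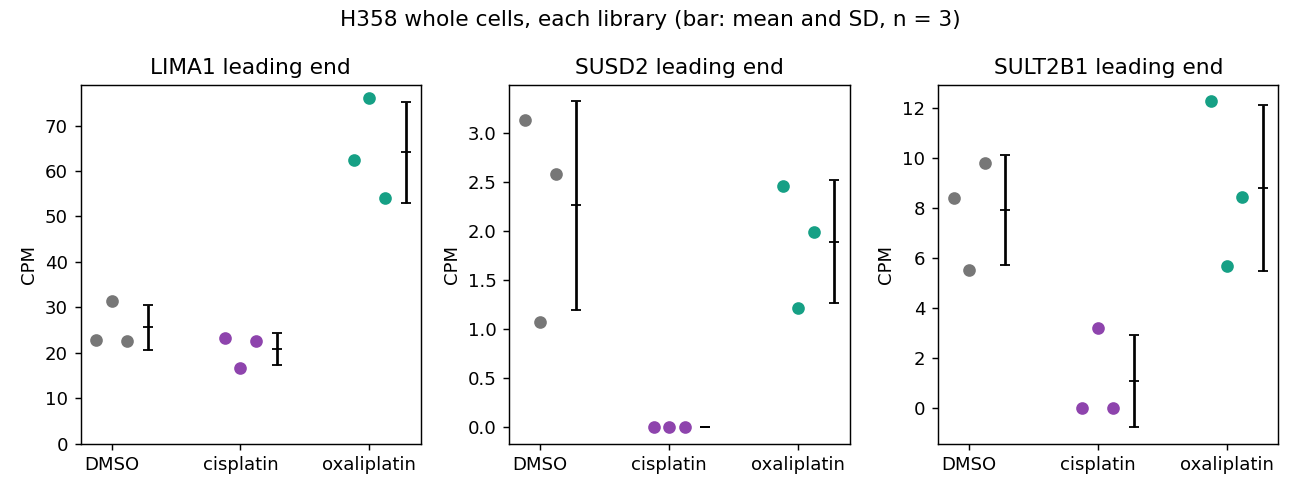
Level (CPM) of the leading kept end of LIMA1, SUSD2 and SULT2B1 in each of the 3 H358 libraries per treatment, with mean and SD at the side. The LIMA1 oxaliplatin libraries lie at 54.0 to 76.0 CPM, above DMSO and cisplatin at 16.7 to 31.3 CPM, and SUSD2 is unlisted in all 3 cisplatin libraries.

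SUSD2's leading end was the member peak called higher in heavy polysomes than in cytosol of A549. It held 109, 112 and 128 CPM in polysomes and 36.3, 23.2 and 58.1 CPM in cytosol in DMSO, and 88.6, 85.3 and 93.6 CPM against 29.7, 19.3 and 27.01 CPM in cisplatin. All polysome libraries lay above all cytosol libraries of their treatment, by a log2 of 1.42 ± 0.30 in DMSO and 1.68 ± 0.30 in cisplatin (edgeR adjusted p 0.00672 and 0.00270, n = 3 per group, higher in 3 of 3 replicate numbers). It was 1 of 9 member peaks tested that was called in each treatment, where 8.02% of all peaks were higher in DMSO and 10.9% in cisplatin. SULT2B1 did not differ beyond its error (-0.27 ± 0.59 in DMSO, 0.10 ± 0.59 in cisplatin, edgeR 95% intervals -1.57 to 1.03 and -1.20 to 1.41). LIMA1's leading kept end was higher by 1.498 ± 0.58 and 1.45 ± 0.58 (edgeR adjusted p 0.1001 and 0.102). With the replicate number as a block, it was called too, at 1.48 ± 0.37 (adjusted p 0.0180) and 1.49 ± 0.36 (adjusted p 0.0143), which gave 2 calls in each treatment. Polysome replicates 1 and 2 have long lists, so list kind differs here from cytosol for 4 of 6 libraries. Cisplatin changed 0 of 8 member peaks tested in polysomes (edgeR, 0.00288% of all peaks; 1 unadjusted p under 0.05, SUSD2 at -0.40 ± 0.16; 0 by DESeq2).

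Other genes of these pathways were taken from lists of the thyroid hormone, actin and junction, sulfation and SUSD2-related genes, by their strongest peak. DIO1 and DIO3, the other two deiodinases, had no peak of this class, and 8 of 10 thyroid genes had 1. With cisplatin in A549 or A549R cytosol, 0 of 8 thyroid, 0 of 10 actin and junction, 0 of 3 sulfation and 0 of 4 SUSD2-related genes passed in edgeR. Of all peaks 1.45% passed in A549 and 0.827% in A549R, so lists this short say little. WSB1, part of a ubiquitin ligase for DIO2 and the most abundant of the thyroid list, had means of 23.5 ± 3.75 CPM in A549 and 21.7 ± 2.51 CPM in A549R DMSO (SD, n = 3). SULT2A1, a sulfotransferase of the same family, had no peak of this class.

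In H358, cisplatin lowered 6 of 10 actin and junction genes and raised 0, where 12.8% of all peaks were lower (edgeR, median log2 -1.06 against -0.42 over all peaks). These were ACTB and its crosslinkers ACTN1 (-1.18 ± 0.29) and ACTN4 (-1.10 ± 0.30), the catenins CTNNA1 (-1.26 ± 0.29) and CTNNB1 (-0.62 ± 0.17), and SVIL, which was unlisted after cisplatin. LIMA1, which binds the catenin complex, did not move with them beyond its error. The markers KRT18 (-0.90 ± 0.21), EPCAM (-1.05 ± 0.17) and VIM (-1.27 ± 0.28) were also lower after cisplatin, along with the higher mitochondrial share, and their part in this was not tested. With oxaliplatin 0 were called higher and 1 lower, CDH1, whose leading peak none of the 3 short oxaliplatin lists holds. In A549 polysomes 5 of 10 in DMSO and 6 of 10 in cisplatin were higher than in cytosol, where 8.02% and 10.9% of all peaks were higher. These were CTNNA1, CTNNB1, VCL, ACTN1 and ACTN4 under both treatments and ACTB in cisplatin, with CTNNB1 at 1.69 ± 0.21 and VCL, which anchors actin at junctions, at 1.31 ± 0.31 in DMSO. In H358 cisplatin the thyroid list had 1 gene lower, EEFSEC, an elongation factor for selenoproteins such as DIO2, unlisted after cisplatin, and the SUSD2 list had CABIN1 lower (-1.76 ± 0.52); of the sulfation list only NR1H2 was tested there, at -0.73 ± 0.25 (edgeR adjusted p 0.0684). USP33, a deubiquitinase of DIO2, was higher in polysomes than in cytosol in DMSO (1.04 ± 0.25) and in cisplatin (1.31 ± 0.26), and THRB, a thyroid hormone receptor, in cisplatin (1.32 ± 0.29). EEFSEC was higher in polysomes in cisplatin (3.04 ± 0.94), and CABIN1 in DMSO (0.93 ± 0.26) and cisplatin (1.11 ± 0.27). Between the compounds in H358, EEFSEC, USP33, CTNNA1, CTNNB1, VCL, SVIL and ACTN1 were lower with cisplatin than with oxaliplatin, and CDH1 was higher. Of all peaks 10.6% were lower in that contrast, where list kind and compound cannot be told apart. The oxysterol receptor NR1H2 was lower (-0.87 ± 0.25) and PAPSS2, which makes the sulfate donor, higher (2.34 ± 0.73) in polysomes in cisplatin. LGALS1, a binding partner of SUSD2 and the most abundant of its list, had means of 455 ± 296 CPM in A549 and 857 ± 169 CPM in A549R DMSO. In the contrast that chose the 4 genes, given with no test, ZYX, an actin-associated focal adhesion protein, had 132 ± 37.4 CPM in A549 and 72.2 ± 9.85 CPM in A549R in DMSO, and NR1H2 had 46.0 ± 7.59 and 26.6 ± 4.11 CPM (SD, n = 3). In cisplatin ZYX had 169 ± 24.7 and 74.1 ± 6.03 CPM, and NR1H2 53.7 ± 2.61 and 28.5 ± 1.63 CPM, with no overlap between the lines under either treatment. Every A549R library lay below every A549 library at 11.3% of all merged peaks fitted in DMSO and 9.3% in cisplatin. Line and list kind cannot be told apart in this contrast.

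The 2 merged peaks most like each member's leading kept peak over the 9 group means, by Pearson's r of log2 CPM plus 1 among 15685 peaks, share its libraries and depth and are given as a description. For DIO2 they were chr5:2755241-2755512 on the plus strand (r = 0.977) and chr8:6728095-6728342 on the minus strand (0.975); for LIMA1 chr10:70304065-70304647 (0.946) and chr6:33288150-33288375 (0.937), both minus. For SUSD2 they were chr16:29475777-29476305, plus (0.996), and chr9:139942549-139942833, minus (0.994), and for SULT2B1 chr15:52203778-52204436 (0.984) and chr3:52327292-52327573 (0.982), both plus.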

How the data were processed

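Each library's deposited list gives peaks with position, strand and a whole-number read count, which the authors deposited without normalization; the smallest is 5. Per the submitters' processing notes, Bowtie2 2.2.5, SAMtools 1.1 and bedtools 2.17.0 were used; criteria for peaks were not given in the sources used here. Though build mm9 is named, positions fit human hg19 and are given as listed, counted from 1. No hg19 annotation was used here, so introns and exons are not named. Per the labels' protocols, libraries were amplified by PCR from anchored oligo-dT primed cDNA, with no molecular identifiers stated.

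Peaks overlapping by 1 base on a strand were merged (Python 3.11.15, pandas 2.3.3). CPM used counts over peaks found in at least 1 short list (lists holding under 60% of their own peak numbers). These were fitted with edgeR 4.0.16 (R 4.3.3), quasi-likelihood, TMM, mean count of at least 5, Benjamini-Hochberg over all peaks fitted; the code was tested on simulated data. DESeq2 1.42.0 and other settings were alternatives. The members and gene lists were chosen with earlier results of these data known. Every member peak was taken; leading peaks, called peaks, called list genes and the most abundant gene of a list are named. List and marker positions came from general knowledge of hg19 and were used where chromosome, strand and span (within 20%) matched RefSeq; SULT1E1, PAPSS1, STS and KRT8 did not, and the markers were set after the files were seen. Pairing of replicate numbers was checked by correlating deviations from group means: all 3 exceeded 0.1 between DMSO and cisplatin within A549 cytosol, A549R cytosol and polysomes, between A549 and A549R cytosol in DMSO, between cytosol and polysomes, and between H358 DMSO and oxaliplatin (0.102 to 0.543 over these), and not in H358 for cisplatin or between A549 and A549R in cisplatin.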

Additional observations from a re-analysis of the deposited data

How the results depend on the processing

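In every alternative tried, the 4 genes kept the direction of their A549R to A549 difference. Without a count minimum, the calls went from 0 to 2 for cisplatin in A549, to 1 in A549R and to 1 for the difference of responses, from 1 to 2 for cisplatin in H358, and from 1 to 2 for polysomes against cytosol in cisplatin. DESeq2 made 1, 1 and 2 calls for cisplatin in A549, the difference of responses and polysomes against cytosol in cisplatin, 3 against 2 for oxaliplatin in H358 and 5 against 4 between the compounds. With peaks listed in every library only, H358 cisplatin had 0 calls and polysomes against cytosol in DMSO 2. With all merged peaks, whose added peaks the short lists lack, H358 cisplatin had 2, oxaliplatin 4 and cisplatin against oxaliplatin 8. With the replicate block, H358 cisplatin had 0 calls, cisplatin against oxaliplatin 2 and polysomes against cytosol 2 in each treatment; the numbers do not pair H358 cisplatin libraries, and no other count of calls changed under the block. Leaving out 1 library at a time gave 0 to 2 calls for H358 cisplatin, 0 to 2 for oxaliplatin, 2 to 4 between the compounds and 1 to 2 for polysomes in DMSO. The log2 ratio of DIO2 in cisplatin was 5.35 from its leading peak alone, and that of LIMA1 with all peaks of its window was 6.10 in DMSO and 5.94 in cisplatin. LIMA1's leading peak alone gave no value, as no A549 cytosol list holds it. Summing only library peaks that themselves overlap a short-list peak, chosen after seeing the data, gave 3.95 in DMSO and 6.36 in cisplatin for DIO2 and left the other 3 genes' ratios as they were. The listing minimum of 5 counts limits DIO2 in A549 and SUSD2 in A549R and H358, and intervals cover the spread between libraries only.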
